A study of Mus musculus with 6 samples.

Results

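The 35 genes described here are read-outs of interferon signalling and of antigen presentation by MHC class I, measured by RNA-seq in mouse pancreatic tumour organoids. They were chosen by gene symbol: 22 are interferon-induced genes and their regulators, and 13 encode the machinery that cuts, transports, loads and displays peptides on class I molecules. All 35 symbols were found among the 54453 gene identifiers, and 26 of them (15 interferon and 11 antigen presentation genes) had enough counts to be tested.

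The libraries come from 3 organoid lines of pancreatic ductal adenocarcinoma, T91, T113 and T118, described as KPC lines in the series text and given the genotype KPF/FC in the sample labels. Organoids are small three-dimensional cultures, here grown in Matrigel, a basement membrane gel. Each line was measured once with a hairpin RNA against Renilla, a luciferase sequence that mouse cells lack, and once with hairpin #5523 against Scrib, the gene of a scaffold that marks the basolateral side of epithelial cells. The hairpin groups therefore hold 3 libraries each, paired by line.

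Every library carried a hairpin and had been through delivery of a vector, by virus according to the treatment label and by plasmid transfection according to the design text. An organoid without a vector is not analysed here. T91 was female and at passage 10, T113 male at passage 13 and T118 male at passage 11, with the same passage under both hairpins, so line, passage and, for T91, sex cannot be told apart. Scrib was targeted by 1 hairpin, so an effect of losing Scrib and an effect of this hairpin cannot be told apart either.

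Interferons are secreted proteins that cells release when sensors such as RIG-I, MDA5 or the cGAS-STING pair meet foreign or misplaced nucleic acid. They bind receptors that act through JAK kinases. STAT2 and IRF9 then act at a DNA element called the ISRE, and a different element, called GAS, serves the response to interferon-gamma. In epithelial tumours the same pathway raises the immunoproteasome, the TAP transporter and the class I heavy chains, through IRF1 and NLRC5 among others, which makes the cells easier for cytotoxic T cells to recognise.

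The ISRE is the sequence feature these genes are best known for, and it is shown here because its presence and the measured level of a gene can be set side by side. The core was searched as GAAA followed by any 2 bases and a second GAAA, on both strands (TTTC, 2 bases and TTTC on the other), in the 250 bases before each RefSeq start in build GRCm38.p6, and 29 of the 35 genes were in that table. It was present for 10 of 18 interferon genes (55.6%) and for B2m alone among 11 antigen presentation genes (9.09%), against 936 of 27025 genes in the table (3.46%). The GAS core TTCNNNGAA, which can share bases with the ISRE core, was present for 4 of the 18 (22.2%) and 1 of the 11 (9.09%), against 8.13% of genes. The windows below run 5′ to 3′ on the strand of the gene, with the matched letters in capitals, first for genes that averaged under 1 CPM over the 6 libraries and then for genes above 10 CPM, a unit that scales counts to a common library size. Windows are not shown for 3 genes with the core, Rsad2 and Gbp3, also under 1 CPM, and Oas1a, at a mean of 4.05 CPM.
Isg15, chr4:156200860-156200911, minus strand: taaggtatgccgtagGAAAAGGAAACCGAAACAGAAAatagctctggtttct
Ifit1, chr19:34640770-34640828, plus strand: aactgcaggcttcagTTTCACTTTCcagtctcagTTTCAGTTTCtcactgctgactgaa
Ifit3, chr19:34583358-34583431, plus strand: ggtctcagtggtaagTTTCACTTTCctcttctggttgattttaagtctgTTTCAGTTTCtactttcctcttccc
Gbp2, chr3:142620589-142620628, plus strand: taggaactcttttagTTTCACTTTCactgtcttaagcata
Cxcl10, chr5:92349078-92349117, minus strand: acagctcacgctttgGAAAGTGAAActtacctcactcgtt
Stat2, chr10:128270261-128270300, plus strand: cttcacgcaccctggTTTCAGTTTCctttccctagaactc
Bst2, chr8:71537572-71537617, minus strand: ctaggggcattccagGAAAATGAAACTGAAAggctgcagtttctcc
B2m, chr2:122147533-122147572, plus strand: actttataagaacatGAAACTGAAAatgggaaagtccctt

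The first match began 78 bases before the start of Isg15, where 3 matches overlap, and 104 bases before that of Ifit1, which has 2. It began 139 bases before the start of B2m. Having the core did not go with a high level: the 11 genes with it had a median of 0.338 CPM per kilobase of exon, with 7 of 11 under 1 CPM, and the 18 without it had a median of 1.69, with 4 of 18 under 1 CPM. Of the 11 with the core, 10 are interferon genes. The 18 without it include all the antigen presentation genes searched except B2m, H2-K1 and H2-D1 among them. The comparison is therefore also one between the gene sets, and the part of each was not tested. A match is a description of the letters and not a measured binding site.

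The libraries held 24035265 to 36235481 counts, so that a single count was worth 0.0269 to 0.0421 CPM and 3 counts, the upper limit that a count of 0 allows, 0.0808 to 0.126 CPM. These limits cover counting error only. The 8 epithelial markers, among them Epcam and Krt19, summed to 7256 to 13012 CPM, and the leukocyte gene Ptprc had 0 to 3 counts. The library of T91 with the Scrib hairpin stood apart in other cell types: its 13 immune markers summed to 67 counts against 8 to 25 elsewhere, led by Lyz2 with 27 and C1qa with 18 counts, and its 9 fibroblast markers to 187 counts against 34 to 63, while Nkg7 and Lum were at 0 in every library. The 2 fibroblast genes that could be tested were higher with the Scrib hairpin in each line, with log2 ratios in T91, T113 and T118 of 2.66, 0.62 and 1.096 for Col1a1 and of 1.93, 0.21 and 0.87 for Col1a2, and neither was called (adjusted p 0.712 and 0.748, edgeR's quasi-likelihood test). Over all 9 fibroblast markers the Scrib library of T113 held fewer counts than its Renilla library, 43 against 63. Pdgfrb fell from 36 to 4 counts there, whereas the sum in T118 rose from 42 to 63. Scrib itself was 177, 157 and 158 CPM in the Renilla libraries of T91, T113 and T118 and 29.7, 34.99 and 30.0 CPM in the Scrib libraries. It was the gene called between the hairpins, with a log2 fold change of -2.38 ± 0.12 (SE, 3 libraries a group) and a Benjamini-Hochberg adjusted p of 0.00582 in edgeR's quasi-likelihood test, which is the test behind every adjusted p given here.

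In outline, the organoids expressed the receptors and kinases of the pathway but almost no interferon, most interferon-induced genes were near the detection limit, and the class I heavy chains were nevertheless among the most abundant transcripts. The immunoproteasome subunits Psmb8 and Psmb9 and the class I regulator Nlrc5 were close to 0. None of the 26 tested genes was called between Scrib and Renilla hairpins. Between lines, B2m was lower in T118 than in the other lines.

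**Figure D1:**
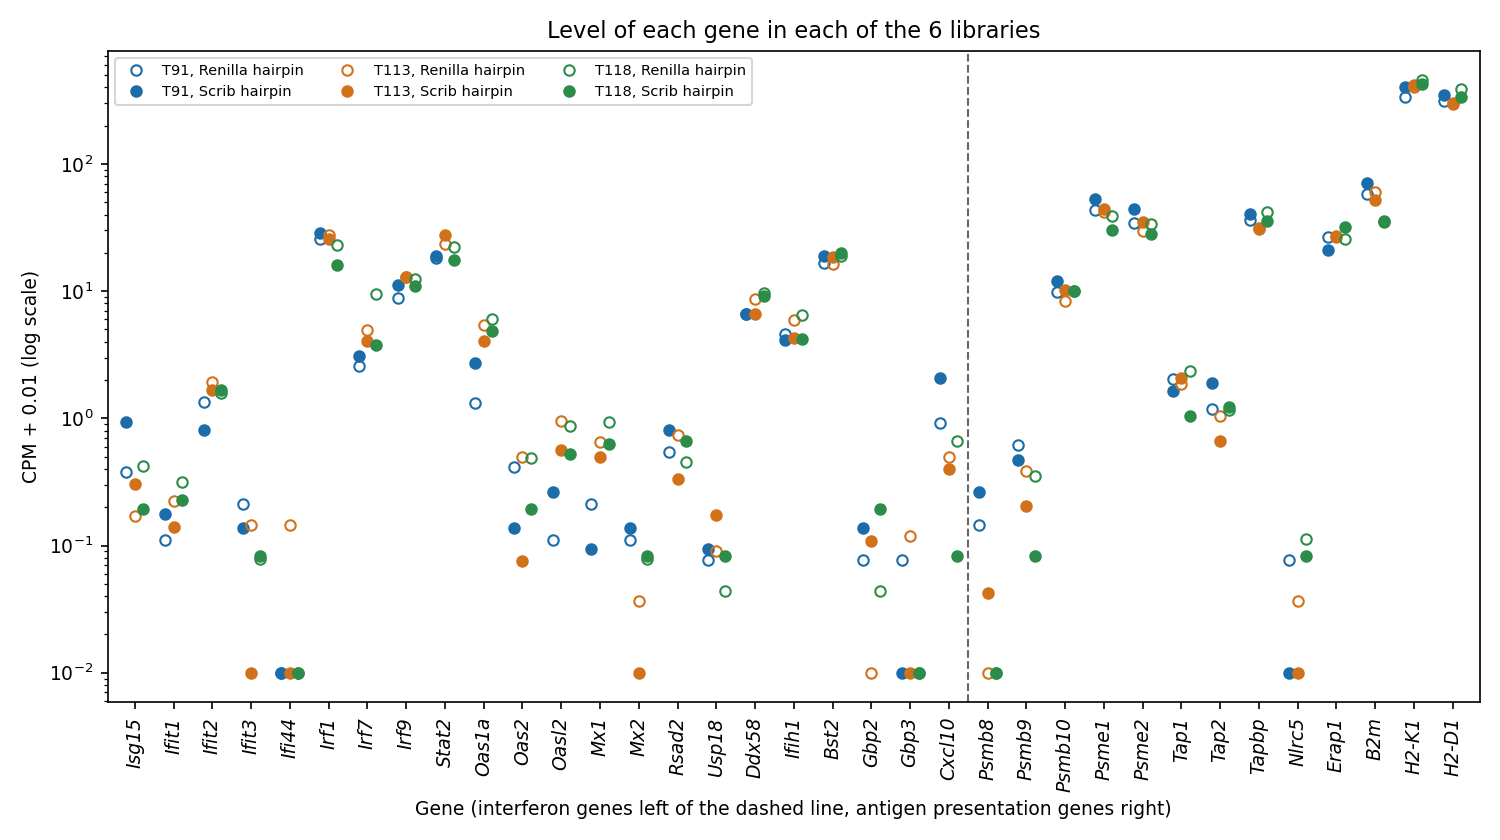
Level of each of the 35 genes in each of the 6 libraries, in CPM plus 0.01 on a log scale, coloured by line, with open circles for the Renilla hairpin and filled circles for the Scrib hairpin. The interferon genes spread from 0 to about the level of Irf1, whereas H2-K1 and H2-D1 lie near the top in every library.

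The interferons themselves were almost absent. Of 21 interferon genes listed, 16 had no count in any library, Ifnb1 and all but 1 of the Ifna genes among them. The other 5 had at most 24 counts in a library. Ifne, an epithelial type I interferon, had 24 counts in T118 with the Renilla hairpin, 3 in T118 with the Scrib hairpin, 2 in T113 with the Scrib hairpin and 0 in the other 3 libraries. Ifnz had 0 to 10 counts, Ifng 0 to 3, and Ifna13 and Ifnab at most 2 and 1. No ligand reached the count needed for testing, so a change between hairpins was not tested.

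Receptors and signal transducers, by contrast, were present. All 28 genes of the signalling list were tested, 22 of them above 10 CPM on average, and their median was 7.25 CPM per kilobase. Ifnar1, a chain of the type I receptor, was 42.6 to 53.3 CPM over the 6 libraries, Ifngr1, the ligand-binding chain of the interferon-gamma receptor, 121 to 213 CPM, and the kinase Jak1 140 to 194 CPM.

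Among the transcription factors of the set, Irf1, an activator of class I genes, was 25.5, 27.7 and 22.8 CPM in the Renilla libraries of T91, T113 and T118 and 28.7, 25.5 and 16.0 CPM in the Scrib libraries. The groups overlapped and the lowest value was in T118 with the Scrib hairpin. Stat2 was 18.2, 23.4 and 22.1 CPM against 18.8, 27.4 and 17.7 CPM, and Irf9, its DNA-binding partner, 8.82, 12.96 and 12.5 CPM against 11.1, 13.02 and 10.9 CPM. Both overlapped between groups, with log2 fold changes of -0.01 ± 0.14 (SE) for Stat2 and 0.05 ± 0.15 (SE) for Irf9. Irf7, which amplifies type I interferon production and is itself induced by interferon, was 2.55, 4.90 and 9.56 CPM against 3.07, 4.04 and 3.77 CPM. Its values diverged most in T118, and the log2 fold change over the 3 lines was -0.47 ± 0.32 (SE), with an adjusted p of 0.804 in edgeR's quasi-likelihood test.

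The induced effector genes were mostly near silent. Of the 22 interferon genes, 13 averaged under 1 CPM and 4 over 10 CPM, and Irf1, Stat2 and Bst2 together held 62.6% of the summed CPM of the list. Ifit1, an RNA-binding antiviral protein, had 34 counts over all 6 libraries, Ifit3 18, Usp18, which restrains the type I receptor, 15, and Gbp2, a guanylate-binding protein, 14. Mx2 had 11 counts, Gbp3 6 and Ifi44 5, and the 5 counts of Ifi44 were all in T113 with the Renilla hairpin. These 7 genes were not tested. For Gbp2 all 3 Scrib libraries (3, 3 and 5 counts) were above the 3 Renilla libraries (2, 0 and 1 counts), a gap of a few counts.

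Isg15, which encodes a ubiquitin-like protein, was 0.369, 0.162 and 0.410 CPM in the Renilla libraries and 0.925, 0.293 and 0.183 CPM in the Scrib libraries, or 5 to 22 counts a library. It was higher with the Scrib hairpin in T91 and T113 and lower in T118. Ifit2 was 1.34, 1.91 and 1.57 CPM against 0.799, 1.66 and 1.65 CPM, and Rsad2, the antiviral enzyme viperin, 0.536, 0.727 and 0.444 CPM against 0.799, 0.325 and 0.659 CPM. Neither gene moved the same way in the 3 lines.

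The oligoadenylate synthetases sense double-stranded RNA. Oas1a was 1.31, 5.36 and 6.07 CPM in the Renilla libraries and 2.69, 4.04 and 4.83 CPM in the Scrib libraries, and Oasl2 0.101, 0.943 and 0.853 CPM against 0.252, 0.553 and 0.512 CPM. For both genes the 2 libraries of T91 lay below those of T113 and T118, and the Scrib library was the higher of the pair in T91 and the lower in the other lines.

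Oas2 was the one interferon gene with an unadjusted p under 0.05. It was 0.402, 0.485 and 0.478 CPM (12, 18 and 14 counts) in the Renilla libraries and 0.126, 0.0651 and 0.183 CPM (3, 2 and 5 counts) in the Scrib libraries of T91, T113 and T118. The groups did not overlap and every line went the same way. The log2 fold change was -1.88 ± 0.51 (SE, 95% interval -3.12 to -0.64), the unadjusted p 0.0094 and the adjusted p 0.686 in edgeR's quasi-likelihood test, so it was not called. Oas2 passed the low-count filter through its Renilla libraries alone, none of the Scrib libraries reaching the 0.335 CPM it asks for, and a gene kept in that way had to differ.

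Mx1, a GTPase that acts on incoming viruses, was 0.201, 0.647 and 0.921 CPM with the Renilla hairpin and 0.0841, 0.488 and 0.622 CPM with the Scrib hairpin. The Scrib library was the lower in each line, yet the groups overlapped, with T91 below T113 and T118 under either hairpin. Its log2 fold change was -0.61 ± 0.39 (SE) with an adjusted p of 0.792 in edgeR's quasi-likelihood test.

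The cytosolic RNA sensors were expressed at a moderate level. Ifih1, which encodes MDA5, was 4.56, 5.93 and 6.48 CPM in the Renilla libraries and 4.12, 4.26 and 4.17 CPM in the Scrib libraries, or log2 ratios of -0.14, -0.47 and -0.63 within T91, T113 and T118. The groups did not overlap. The log2 fold change was -0.42 ± 0.19 (SE, 95% interval -0.88 to 0.04) and the adjusted p 0.772 in edgeR's quasi-likelihood test, so this gene too was not called. Ddx58, which encodes RIG-I, was 6.60, 8.65 and 9.66 CPM against 6.65, 6.61 and 9.19 CPM, with overlapping groups.

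Bst2, the tetherin that holds budding virus at the cell surface, was 16.6, 16.5 and 18.8 CPM with the Renilla hairpin and 18.9, 18.5 and 20.1 CPM with the Scrib hairpin. It had the highest level per kilobase of the interferon genes, 20.2 CPM per kilobase. The Scrib library was the higher in each line, by 0.10 to 0.19 log2 units, and the groups overlapped. The 95% interval of the fitted log2 fold change was -0.12 to 0.42, within 2-fold either way.

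Cxcl10, a chemokine that draws T cells, went opposite ways in different lines. It was 0.905, 0.485 and 0.648 CPM (27, 18 and 19 counts) in the Renilla libraries of T91, T113 and T118 and 2.06, 0.391 and 0.0732 CPM (49, 12 and 2 counts) in the Scrib libraries. The Scrib library was thus the highest of the 6 in T91 and the lowest of the 6 in T118. The log2 fold change over the lines was -0.27 ± 0.71 (SE), with an adjusted p of 0.947 in edgeR's quasi-likelihood test. The high value in T91 came from the library with the raised immune and fibroblast markers, and the part of those cells in it was not tested.

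Antigen presentation begins at the proteasome, where interferon-induced subunits can replace the constitutive catalytic ones. Psmb8 had 4, 0 and 0 counts in the Renilla libraries of T91, T113 and T118 and 6, 1 and 0 counts in the Scrib libraries, and it was not tested. Of its 11 counts 10 were in T91, 6 of them in the library with the raised immune markers, whose part was not tested. Per kilobase of exon it reached at most 0.0424% of the level of Psmb5, the constitutive subunit it replaces. Psmb9 was 0.0249% to 0.203% of Psmb6 in the same terms. Psmb10 differed from both, at 11.8% to 13.6% of Psmb7.

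Psmb9 was 0.603, 0.377 and 0.341 CPM (18, 14 and 10 counts) in the Renilla libraries and 0.463, 0.195 and 0.0732 CPM (11, 6 and 2 counts) in the Scrib libraries. The Scrib library was the lower in each line, the groups overlapped, and the log2 fold change was -0.97 ± 0.49 (SE) with an adjusted p of 0.778 in edgeR's quasi-likelihood test. Psmb9 shares its 5′ end region with Tap1 on the other strand, and the strand setting of the quantification is not given in the sources used here, so reads in the shared bases could belong to either gene. Psmb10 was 9.89, 8.40 and 9.96 CPM against 12.0, 10.3 and 10.1 CPM. All 3 Scrib values lay above the Renilla values, by 0.28, 0.29 and 0.01 log2 units within T91, T113 and T118, and the adjusted p was 0.807 in edgeR's quasi-likelihood test. Psme1 and Psme2, the subunits of the PA28 activator cap, were 30.3 to 53.4 and 27.9 to 44.0 CPM over the 6 libraries. For both, the Scrib library of T91 was the highest and that of T118 the lowest.

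The TAP transporter, which carries peptides into the endoplasmic reticulum, was weakly expressed. Tap1 was 2.05, 1.86 and 2.35 CPM in the Renilla libraries and 1.64, 2.08 and 1.02 CPM in the Scrib libraries, and Tap2 1.17, 1.02 and 1.16 CPM against 1.89, 0.651 and 1.21 CPM. Neither moved one way in all lines. Tapbp, the tapasin that bridges TAP to empty class I molecules, was higher at 30.5 to 41.9 CPM, and Erap1, the peptidase that trims peptides to length, was 21.2 to 32.1 CPM. Nlrc5, the transactivator of class I genes, had 8 counts in all 6 libraries together and was not tested.

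The class I molecule itself was abundant. H2-K1, a heavy chain gene at chr17:33996017-34000347, was 338, 401 and 454 CPM in the Renilla libraries and 402, 417 and 422 CPM in the Scrib libraries of T91, T113 and T118, a mean of 397 ± 58.1 against 414 ± 10.1 CPM (SD, n = 3 each). H2-D1, at chr17:35262730-35267499, was 312, 299 and 385 CPM against 350, 298 and 338 CPM, a mean of 332 ± 46.5 against 329 ± 27.4 CPM (SD, n = 3 each). The groups overlapped for both genes. Per kilobase, H2-K1 ranked above 98.2% and B2m above 95.4% of the 18492 genes with at least 10 counts in all. H2-K1, H2-D1 and B2m together held 83.8% of the summed CPM of the antigen presentation genes. Class I heavy chain genes share long near-identical stretches, so how reads were split between H2-K1, H2-D1 and the H2-Q genes is uncertain.

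**Figure D2:**
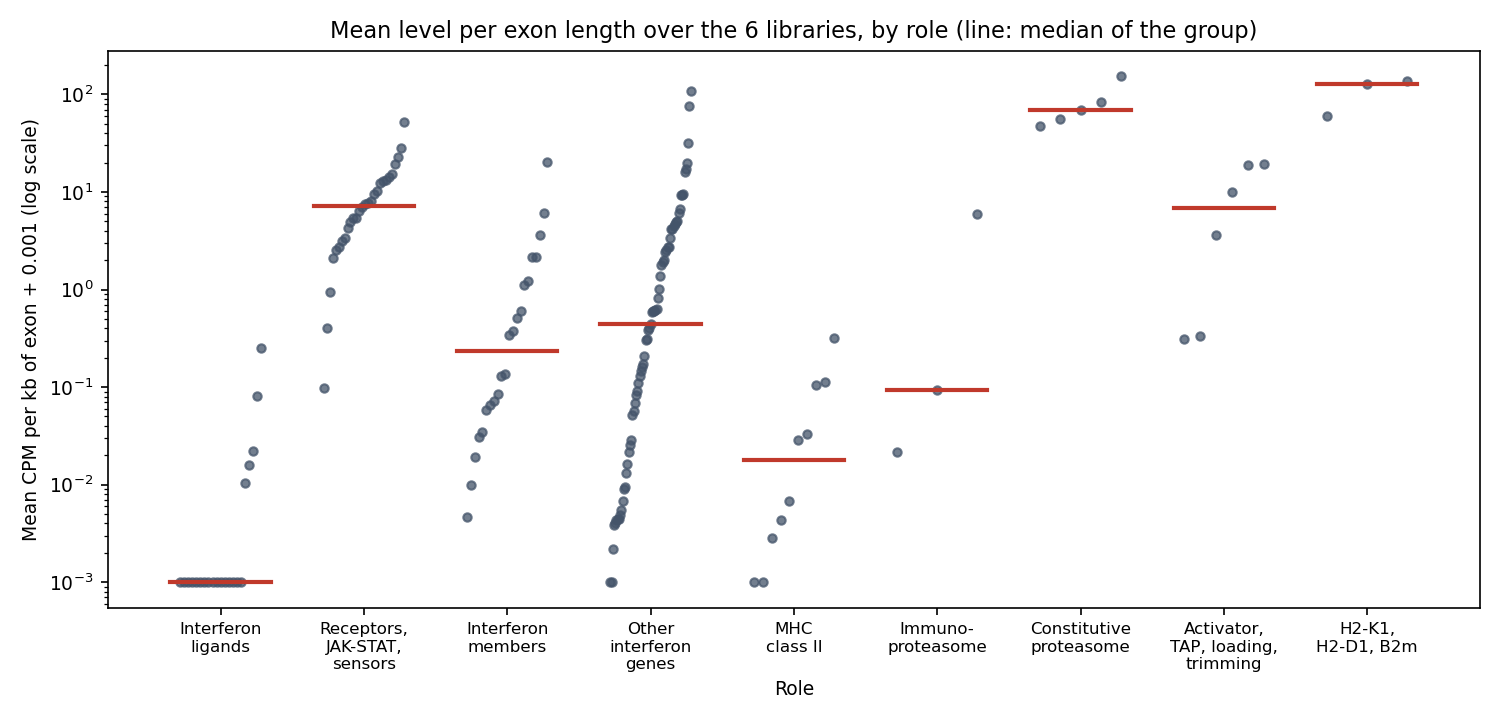
Mean level over the 6 libraries in CPM per kilobase of exon plus 0.001, on a log scale, with genes grouped by role, each point a gene and each red line the median of its group. The ligands sit at or near 0, the signalling genes at a median of 7.25, the interferon genes at 0.236, and the class I genes H2-K1, H2-D1 and B2m between 60.5 and 138.

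The comparison of Scrib with Renilla hairpins, fitted over the 3 lines with a term for line, called 0 of the 15 tested interferon genes and 0 of the 11 tested antigen presentation genes at an adjusted p under 0.05 in edgeR's quasi-likelihood test. The background was 1 of 14169 genes (0.00706%). DESeq2 and limma-voom also called 0 of the 26. At an unadjusted p under 0.05, the interferon genes held 0 higher and 1 lower (Oas2), against 1.55% higher and 5.06% lower of all genes tested. The lower count was 0 with DESeq2, 1 with limma-voom, and in edgeR 4 of 14 without the libraries of T91 and 0 without those of T113. No share of all genes at an unadjusted p was worked out for these settings, so these counts have no background. Without T91, edgeR called 94 genes in all at an adjusted p under 0.05. The antigen presentation genes held none in either direction by any of the 3 tools.

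For the interferon genes the log2 fold change had its median at -0.15, with 5 above and 10 below 0, and a range from -1.88 for Oas2 to 0.44 for Isg15. The antigen presentation genes had a median of 0.00, with 6 above and 5 below 0, and a range from -0.97 for Psmb9 to 0.20 for Psmb10. Over all genes tested the median was -0.01, with 6830 above and 7339 below 0. Of the 26 tested members, Oas2, Ifih1 and Psmb10 had hairpin groups that did not overlap (11.5%), against 4.74% of all genes, and Oas2 is one whose filter required a difference.

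What the data could have shown differed between the 2 sets. For 9 of 11 antigen presentation genes the 95% interval of the log2 fold change lay within 1 of 0, so that a change of 2-fold or more lay outside it. The same held for 8 of 15 interferon genes, against 79.9% of all genes tested. The intervals had a median width of 0.68 for antigen presentation and 1.52 for interferon genes, against 0.66 over all genes. H2-K1 and H2-D1 were bounded most closely, at -0.18 to 0.32 and -0.26 to 0.24, whereas Cxcl10, at -1.98 to 1.45, and Isg15, at -0.95 to 1.83, were hardly bounded.

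**Figure D3:**
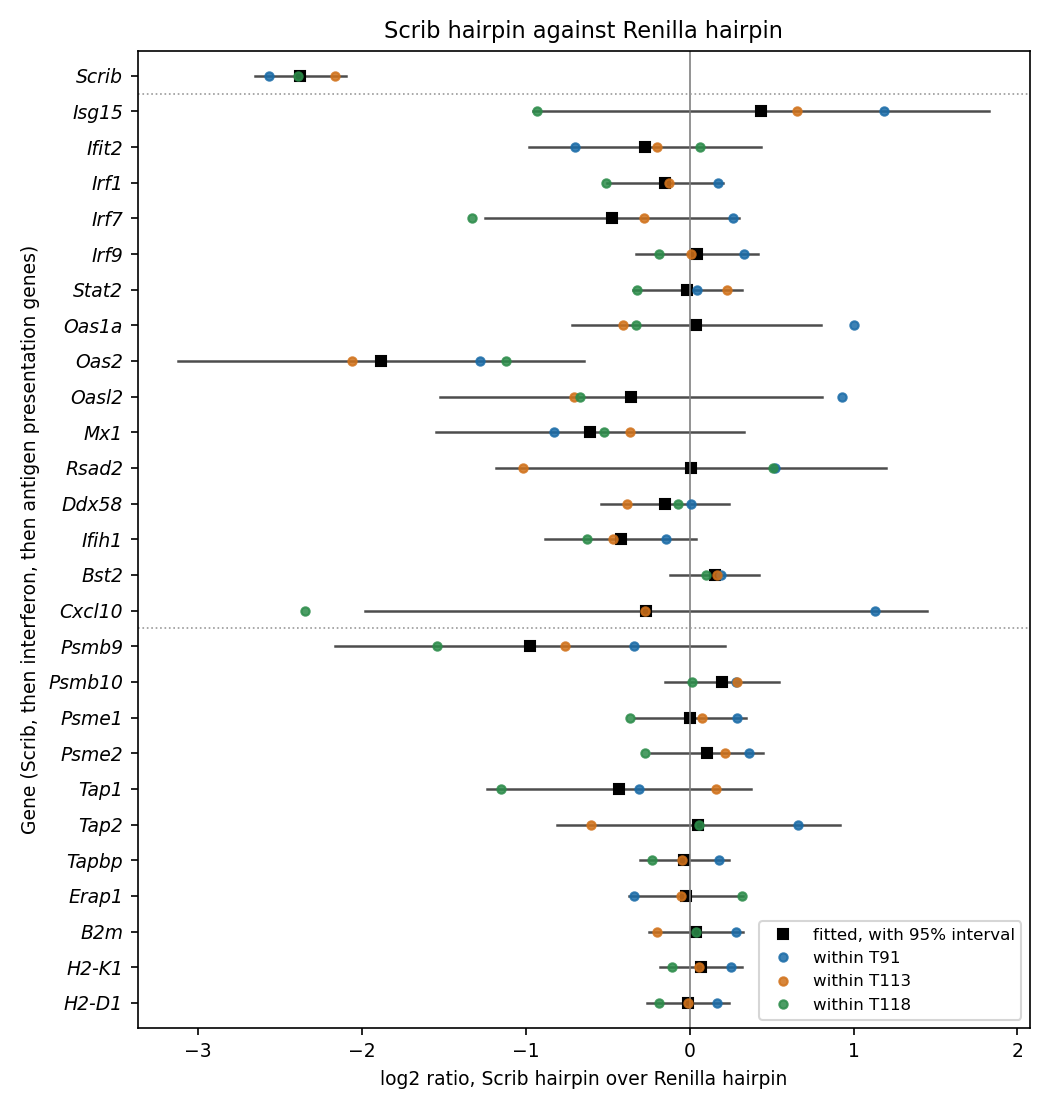
Log2 ratio of Scrib over Renilla hairpin for Scrib and the 26 tested genes, with the fitted value and its 95% interval in black and the ratio within each line in colour. Scrib is fitted at -2.38, the lowest member, Oas2, at -1.88, and most intervals of the members cross 0. The coloured points of Cxcl10 range from 1.13 in T91 to -2.35 in T118.

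Within lines, where each value rests on 1 library per hairpin, T91 differed in direction from the others. Across the 15 interferon genes the median log2 ratio of T91, T113 and T118 was 0.19, -0.28 and -0.51, with 4, 11 and 12 of 15 genes below 0. For the 11 antigen presentation genes it was 0.25, -0.01 and -0.19, with 3, 6 and 7 of 11 below 0. The 8 epithelial markers went alongside, with medians of 0.15, -0.18 and -0.30 and 2, 5 and 7 of 8 below 0. For 7 mitochondrial transcripts the medians were 0.19, -0.50 and -0.10, with 2, 5 and 4 of 7 below 0. Their lowest median was in T113 and not in T118. Between 49.9% and 50.5% of all genes were below 0 in each line. The difference between lines in these ratios was not tested. The T91 ratios use the library with 67 immune and 187 fibroblast marker counts, and the part of those cells, of the epithelial content and of RNA quality was not tested. In bulk RNA, fewer cells of a type and less RNA per cell cannot be told apart.

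The other interferon-induced genes, a further list of 67 of which 44 were tested, gave a similar account. None was called in edgeR's quasi-likelihood test. At an unadjusted p under 0.05 in that test, 3 (Samd9l, Oas1g and Uba7) were lower and 0 higher, against 5.06% lower and 1.55% higher of all genes tested. The log2 fold change had its median at -0.13, with 11 above and 33 below 0. Samd9l, a restriction factor, was 14.2, 15.2 and 62.5 CPM in the Renilla libraries of T91, T113 and T118 and 12.1, 7.13 and 25.6 CPM in the Scrib libraries, lower with the Scrib hairpin in each line. Its log2 fold change was -0.88 ± 0.21 (SE) with an adjusted p of 0.598 in edgeR's quasi-likelihood test. DESeq2 did call it, at an adjusted p of 0.0368, and so did edgeR without the libraries of T91, at 0.00838. Those settings called 63 and 94 genes in all. The other settings did not call it, limma-voom (adjusted p 0.471) and edgeR without a low-count filter (0.236) among them. Oas1g, a close copy of Oas1a with which it can share reads, was 0.201, 2.94 and 2.93 CPM against 0, 1.33 and 1.24 CPM. Uba7, the enzyme that activates Isg15 protein, was 4.79, 3.61 and 7.03 CPM against 3.79, 2.38 and 2.49 CPM. For Uba7 the adjusted p was 0.744 in edgeR's quasi-likelihood test.

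In the signalling list edgeR's quasi-likelihood test called 0 of 28 genes, with 9 above and 19 below 0 and a median log2 fold change of -0.09. At an unadjusted p under 0.05 in that test, 1 gene was lower, against 5.06% of all genes tested. That gene was Sting1, the adaptor of cytosolic DNA sensing, at 15.2, 8.38 and 2.08 CPM in the Renilla libraries of T91, T113 and T118 and 11.9, 5.79 and 1.17 CPM in the Scrib libraries. It was lower with the Scrib hairpin in each line, by a fitted -0.54 ± 0.17 (SE), with an adjusted p of 0.737 in edgeR's quasi-likelihood test.

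Of the other antigen presentation genes, 34 of 41 were tested and none was called by edgeR, DESeq2 or limma-voom, with 13 above and 21 below 0 and a median of -0.02. In edgeR 1 was lower at an unadjusted p under 0.05, against 5.06% of all genes tested. The lower one was H2-Q2, a class I gene of the Q region, at 3.65, 3.56 and 12.1 CPM in the Renilla libraries and 2.82, 2.90 and 3.95 CPM in the Scrib libraries, and the adjusted p was 0.748 in edgeR's quasi-likelihood test. H2-T23, the mouse Qa-1 gene, was 13.2, 24.002 and 23.2 CPM against 15.4, 16.0 and 8.82 CPM, with T91 going against the other lines. The MHC class II genes, which many epithelial cells show after interferon-gamma, had 37 to 57 counts per library over 10 genes, and of them H2-DMa alone could be tested.

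Between the organoid lines, the joint test of the 3 lines, with 2 libraries a line, called 0 of 15 interferon genes and 1 of 11 antigen presentation genes, against 14.0% of all genes in edgeR's quasi-likelihood test. At an unadjusted p under 0.05 the interferon genes held 3, namely Oas1a, Oasl2 and Mx1, against 29.5% of all genes. DESeq2's likelihood ratio test called 1 interferon gene, and its share over all genes is not given here.

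The called gene was B2m, the light chain that every class I molecule needs to reach the cell surface. It was 58.2 and 70.9 CPM in T91, 60.0 and 52.2 CPM in T113, and 34.9 and 35.8 CPM in T118, the Renilla library first. Both T118 libraries lay below the other 4. T118 differed from T91 by -0.87 ± 0.15 log2 units (SE, adjusted p 0.015) and from T113 by -0.67 ± 0.15 (SE, adjusted p 0.038) in edgeR's quasi-likelihood test, comparisons that called 1564 (11%) and 1452 (10.2%) of the 14169 genes. T113 differed from T91 by -0.20 with a 95% interval of -0.55 to 0.15, in a comparison that called 6.06% of all genes. The hairpin made no detectable difference, with a log2 fold change of 0.04 and a 95% interval of -0.25 to 0.33.

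The heavy chains did not follow B2m. H2-K1 and H2-D1 differed from T91 to T118 by 0.25 and 0.13 log2 units, neither called. The summed heavy chain level per kilobase was therefore 3.31 to 4.24 times that of B2m in the 4 libraries of T91 and T113 and 6.59 to 7.48 times in the 2 libraries of T118. This ratio was not tested, and it compares transcripts and not proteins.

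**Figure D4:**
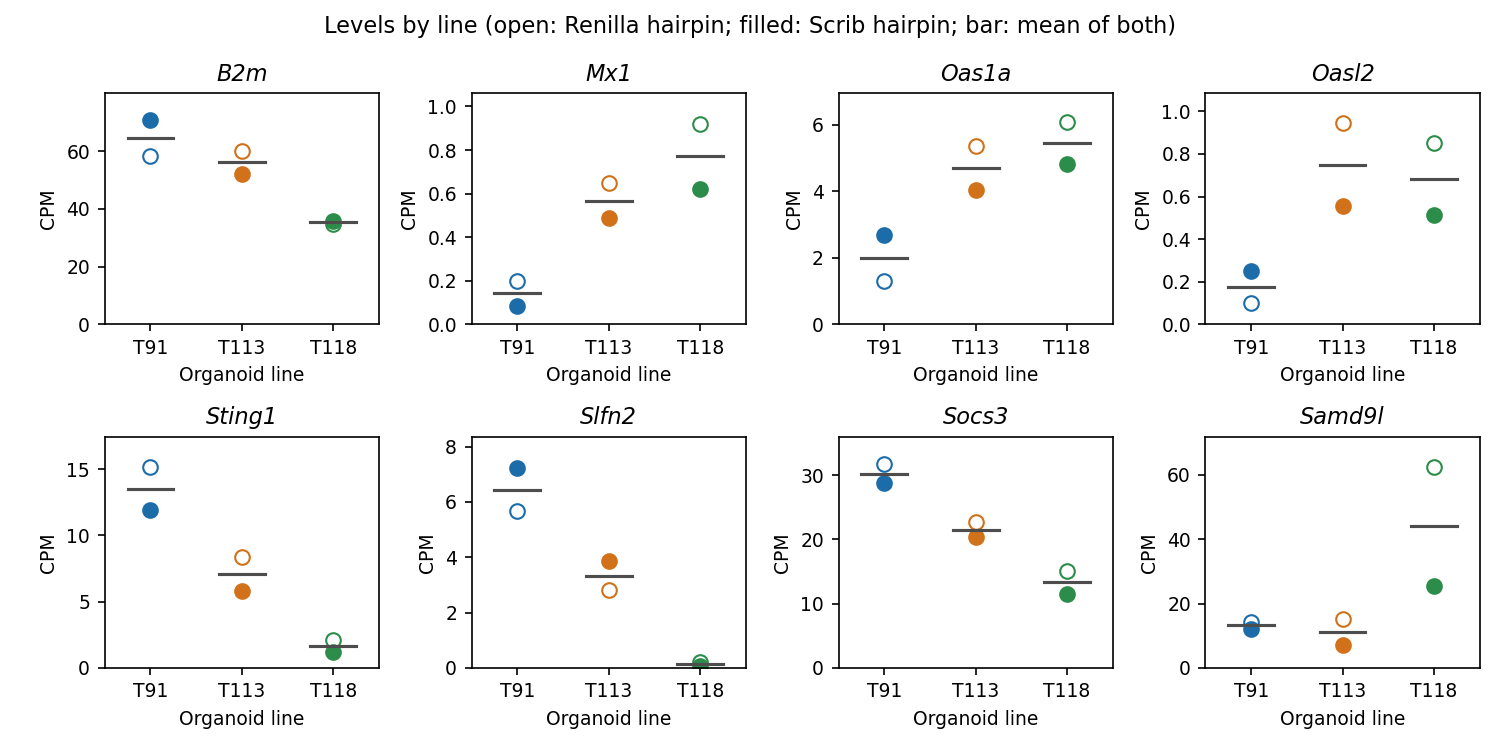
Level in CPM in each line for 4 members (upper row) and 4 other interferon pathway genes (lower row), with an open circle for the Renilla hairpin, a filled circle for the Scrib hairpin and a bar at the mean of both. B2m, Sting1, Slfn2 and Socs3 are lowest in T118, while Mx1, Oas1a and Oasl2 are lowest in T91. Slfn2, Mx1 and Oasl2 passed the low-count filter only through the lines where they were higher.

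Among the interferon members, Mx1 came closest to a call between lines, with a joint adjusted p of 0.0575 in edgeR's quasi-likelihood test. Its T118 libraries exceeded those of T91 by 2.40 ± 0.52 log2 units (SE), though on 2 to 27 counts a library. Both T91 libraries of Mx1 and of Oasl2 lay under the 0.335 CPM of the low-count filter, which these genes passed through T113 and T118 alone, and genes kept in that way had to differ between lines. Oas1a was higher in T118 than in T91 by a fitted 1.47 log2 units and Oasl2 higher in T113 than in T91 by 2.07, with joint adjusted p values of 0.105 and 0.141 in the same test.

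The called line differences of the wider pathway did not run one way. Of the other interferon-induced genes, 8 of 44 (18.2%) were called between lines, of the signalling genes 3 of 28 (10.7%), and of the other antigen presentation genes 3 of 34 (8.82%), against the same 14.0%. Sting1 was lower in T118, which differed from T91 by -3.08 ± 0.23 log2 units (SE), with a joint adjusted p of 0.00155 in edgeR's quasi-likelihood test, and T113 lay in between. Slfn2, a Schlafen family gene, went from a mean of 6.45 CPM in T91 to 3.34 CPM in T113 and 0.139 CPM in T118. Both T118 libraries of Slfn2 lay under the 0.335 CPM of the low-count filter. Slfn2 passed it through T91 and T113 alone, so it had to differ between lines. Socs3, a feedback inhibitor of JAK signalling, averaged 30.3, 21.5 and 13.3 CPM in T91, T113 and T118.

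Other genes had other orders among the lines. Samd9l averaged 13.2, 11.1 and 44.0 CPM, and Oas1g 0.101, 2.14 and 2.09 CPM in T91, T113 and T118. Both T91 libraries of Oas1g lay under the 0.335 CPM of the low-count filter. Oas1g passed it through T113 and T118 alone, so it had to differ between lines. Epsti1 was highest in T91, at a mean of 2.02 CPM against 0.408 and 0.347 CPM. Among class I genes, H2-M3, which presents formylated peptides, averaged 4.17, 4.67 and 1.28 CPM, H2-Q7 9.18, 10.2 and 4.59 CPM and H2-Q10 11.9, 27.7 and 12.3 CPM, all 3 called between lines. These calls depended on single libraries. In edgeR's joint test the adjusted p of H2-Q10 was 0.0803 without the Renilla and 0.0771 without the Scrib library of T113, and that of H2-M3 0.0569 without the Renilla library of T113. For H2-Q7 it was 0.146 and 0.0529 without the Renilla and the Scrib library of T113, and 0.0509 without the Scrib library of T118. The Samd9l call was lost without the hairpin term, at 0.152, and that of Oas1g at 0.052. The sequence that H2-M3, H2-Q7 and H2-Q10 share with other class I genes leaves the split of reads between class I genes uncertain.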

How the data were processed

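RNA-seq libraries from 3 organoid lines, each with a Renilla and a Scrib hairpin, were analysed. For each Ensembl gene the authors deposited an estimated count, made with Salmon 1.4.0 on GRCm38 (mm10), per the submitters' processing notes, which also name DESeq 2; annotation and strand setting: not given in the sources used here. All expected counts were rounded to whole numbers. Symbols, exon lengths and positions came from the GENCODE M21 annotation and matched 54200 of 54453 identifiers. CPM used library sizes scaled by TMM.

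The test was edgeR 4.0.16's quasi-likelihood test with line and hairpin terms on the 14169 genes passing filterByExpr (minimum count 10), two-sided, adjusted by the Benjamini-Hochberg method over all of them, with a threshold of 0.05. It had 2 residual degrees of freedom, and the biological coefficient of variation was 15.5%. The line test asked whether the 3 lines differed. Within-line ratios added a prior count of 2. The same line under both hairpins pairs the libraries, as the labels state; deviations from group means correlated at 0.62 to 0.67 within lines and -0.42 to -0.22 between lines. The labels do not say whether lines came from separate mice, and each line and hairpin has 1 library, so p-values measure the spread between these libraries. Alternatives were no line term, DESeq2 1.42.0, limma-voom (limma 3.58.1), other size factors, filters and thresholds, and leaving out libraries.

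The members and lists were chosen with earlier results of these data known. Named genes were all 35 members, Scrib, detected interferon ligands, and from each further list up to 4 genes by smallest p in the hairpin test and up to 4 in the line test; others named only illustrate a range and were chosen after their values were seen. Promoter windows were read from RefSeq's table (GRCm38.p6). Results for some genes of the further lists are not reported here.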

Additional observations from a re-analysis of the deposited data

Results flagged for a closer look

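Cxcl10 moved in opposite directions in 2 lines. The log2 ratio of Scrib over Renilla hairpin was 1.13 in T91, from 27 to 49 counts, and -2.35 in T118, from 19 to 2 counts. Those log2 ratios include a prior count of 2. Without it, the observed ratio was 2.28 in T91 (exact 95% interval 1.395 to 3.79), and the level in T118 was 8.86-fold lower (2.14 to 78.4). The intervals cover counting error only. The difference between the lines was not tested, since each line has 1 library per hairpin.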

How the results depend on the processing

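No member that an alternative tested was called between hairpins; a mean CPM of at least 5 left 5 interferon and 8 antigen presentation members, and leaving out T91 left 14 and 10. B2m stayed called at 0.05 in the joint test of the lines in each alternative that gave it a value, and its pairwise calls were not rerun. Without the line term (no replicate block) 1 gene in all was called, and that pairing changed no call of a member. All genes called between hairpins numbered 64 without a low-count filter, 63 with DESeq2, 8 with limma-voom and 9 to 94 with a line left out (94 without T91, 9 without T113, 25 without T118). Of the other interferon genes 1 was called with DESeq2, and 0 to 1 with a line left out. The median of the interferon members ran from -0.34 without T91 to -0.02 without T118.

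The sign of a small fold change turned in these settings. Without the line term Stat2 was 0.0043, Oas1a -0.14 and Cxcl10 0.29; limma-voom gave Oas1a -0.10; no filter gave Rsad2 -0.012 and Psme1 -0.016; a mean CPM of at least 5 gave Psme1 -0.0040. With a line left out the ranges were -0.31 to 0.020 for Irf1, -0.090 to 0.16 for Irf9, -0.14 to 0.14 for Stat2, -0.37 to 0.32 for Oas1a, -0.29 to 0.57 for Rsad2 and -1.34 to 0.53 for Cxcl10. They were -0.14 to 0.18 for Psme1, -0.024 to 0.29 for Psme2, -0.29 to 0.38 for Tap2, -0.14 to 0.062 for Tapbp, -0.20 to 0.13 for Erap1, -0.085 to 0.17 for B2m, -0.024 to 0.15 for H2-K1 and -0.098 to 0.077 for H2-D1. For Slfn2 they were -0.048 to 0.41, for H2-Q10 -0.36 to 0.014, for H2-Q7 -0.20 to 0.18 and for H2-Q6 -0.11 to 0.069.

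Between lines, all genes called numbered 1310 with a mean CPM of at least 5, 727 at a threshold of 0.01 and 1274 to 4328 with a library left out. Interferon members called were 2 without a filter, 1 with DESeq2's likelihood ratio test and 0 to 4 with a library left out (4 without the Renilla library of T118). Antigen presentation members called were 0 at 0.01 and 1 to 3 with a library left out. Other interferon genes called were 3 with a mean CPM of at least 5, 2 at 0.01 and 5 to 16 with a library left out. Other antigen presentation genes called were 5 without a filter, 0 at 0.01 and 0 to 7 with a library left out. Without the hairpin term the line calls of Samd9l (adjusted p 0.152, edgeR) and Oas1g (0.052) were lost, and H2-Q10, H2-M3 and H2-Q7 each lost theirs with at least 1 library left out. The cause of these changes was not tested. Counts of a few per library limit Isg15, Oas2, Oasl2, Mx1, Rsad2, Cxcl10 and Psmb9, and the 9 untested members allow no statement.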
